A study of Mus musculus with 26 samples.

Results

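The transcripts described here are those of 10 genes. They are Alk and Eml4, the partners of the EML4-ALK fusion, and 8 genes whose proteins connect receptor tyrosine kinases to RAS and PI3K, namely Shc1, Frs2, Irs1, Irs2, Gab1, Gab2, Ptpn11 and Sos1. Members were taken by symbol, ignoring case, from a table of 55391 genes, and all 10 passed the filter on low counts that left 14264 genes for testing. RNA sequencing covered EA1, EA2 and EA3, epithelial lines grown out of lung tumors that formed in C57BL/6 mice after an adenovirus delivered Cas9 and guides against Eml4 and Alk, so that every line carries variant 1 of the fusion. EA2 was derived in another laboratory. Each line stands for 1 tumor, so that differences between the lines and between the tumors of origin cannot be told apart. The lines were grown in plastic dishes with 10% serum and treated with alectinib (100 nM), which blocks the ALK kinase, or with 0.1% DMSO, in which it is dissolved. On days 1, 2, 3 and 5 a single library was made for each line under each treatment, which gives 4 libraries per line and treatment and 24 in all. The days served as replicates, and p-values therefore measure the spread between days of 1 culture series, not between separate cultures.

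A receptor tyrosine kinase signals through phosphorylated tyrosines that bind adaptor proteins. ALK and its EML4 fusion bind SHC1, FRS2 and IRS1; SHC1 and FRS2 bring in GRB2 and with it SOS1, which loads RAS with GTP, while the IRS and GAB docking proteins carry binding sites for PI3K. PTPN11 is the phosphatase SHP2, which docks on GAB and FRS2 proteins and is needed for full RAS activation by most receptors. In the fusion, the start of EML4, a microtubule-binding protein that forms trimers, is joined to the part of ALK that holds the kinase, and the fused gene is transcribed from the Eml4 promoter. Counts per gene do not separate the fusion transcript from transcripts of intact Eml4 or Alk.

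Alk, Eml4 and Sos1 lie on chromosome 17 in the GENCODE annotation of mm10, from 71868972 to 72604627 on the minus strand, from 83350931 to 83480361 on the plus strand and from 80393751 to 80480453 on the minus strand. Irs2 (10984681 to 11008458) and Gab1 (80764438 to 80880519) lie on the minus strand of chromosome 8. Frs2 lies on chromosome 10 from 117069427 to 117148534, Irs1 on chromosome 1 from 82233101 to 82291416 and Ptpn11 on chromosome 5 from 121130533 to 121191397, all on the minus strand. Shc1 (chromosome 3, 89418443 to 89430027) and Gab2 (chromosome 7, 97081586 to 97308946) lie on the plus strand. All 10 are protein-coding. Exons of Irs1 share 30.86% of their bases with Gm9747 on the other strand, those of Gab1 5.23% with Gm31105 and those of Irs2 2.56% with 9530052E02Rik. The strand used in counting is not given in the sources used here, so that Irs1 values in particular are uncertain.

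Promoter sequences from RefSeq (GRCm38.p6) were given for 9 of the 10 genes. The 250 bases before the RefSeq start are shown for Irs2, Gab1 and Frs2, the members that were higher with alectinib in at least 2 lines, for Irs1 as the relative of Irs2, and for Eml4, whose promoter the fusion uses. They were read 5′ to 3′ on the strand of the gene, at chr8:11008930-11009179 (minus) for Irs2, chr1:82291440-82291689 (minus) for Irs1, chr8:80880520-80880769 (minus) for Gab1, chr10:117148475-117148724 (minus) for Frs2 and chr17:83350681-83350930 (plus) for Eml4. Capitals mark matches to the searched motifs.
Irs2: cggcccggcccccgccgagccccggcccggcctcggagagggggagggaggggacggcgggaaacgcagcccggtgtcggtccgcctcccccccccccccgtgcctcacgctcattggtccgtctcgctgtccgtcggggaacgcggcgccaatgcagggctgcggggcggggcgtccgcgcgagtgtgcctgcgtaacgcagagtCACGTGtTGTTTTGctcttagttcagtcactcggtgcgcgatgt
Irs1: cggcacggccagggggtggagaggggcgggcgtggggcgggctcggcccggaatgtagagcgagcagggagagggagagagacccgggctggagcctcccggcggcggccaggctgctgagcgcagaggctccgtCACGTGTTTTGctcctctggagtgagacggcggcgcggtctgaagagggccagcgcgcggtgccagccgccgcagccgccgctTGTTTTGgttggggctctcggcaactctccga
Gab1: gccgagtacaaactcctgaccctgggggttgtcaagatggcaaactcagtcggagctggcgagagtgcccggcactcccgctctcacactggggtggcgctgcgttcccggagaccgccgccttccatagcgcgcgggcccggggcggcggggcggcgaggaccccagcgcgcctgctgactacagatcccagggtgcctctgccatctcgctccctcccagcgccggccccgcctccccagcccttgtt
Frs2: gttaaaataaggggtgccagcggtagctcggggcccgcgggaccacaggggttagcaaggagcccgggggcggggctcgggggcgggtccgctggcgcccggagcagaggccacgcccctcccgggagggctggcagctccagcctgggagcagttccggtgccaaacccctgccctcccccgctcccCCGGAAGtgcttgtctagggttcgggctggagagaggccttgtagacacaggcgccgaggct
Eml4: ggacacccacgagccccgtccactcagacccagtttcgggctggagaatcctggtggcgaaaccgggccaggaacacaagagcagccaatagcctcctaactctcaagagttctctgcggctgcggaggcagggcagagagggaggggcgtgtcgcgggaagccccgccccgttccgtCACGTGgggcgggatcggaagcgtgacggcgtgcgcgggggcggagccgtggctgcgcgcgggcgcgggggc

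The motifs were searched on both strands, and all matches were on the strand shown. The E-box CACGTG stood 72 bases before the start of Eml4, 115 bases before that of Irs1 and 44 bases before that of Irs2, and 6.04% of 32536 promoters of the same length held it. The ETS motif CCGGAAG was found in Frs2, 62 bases before the start, and in Ptpn11, 103 bases before it, against 6.95% of all promoters. Ptpn11 also held the cyclic AMP response element TGACGTCA (1.56% of promoters). TGTTTTG, a motif of insulin response elements that was added after the sequences were seen, occurred at 2 places in Irs1 and 1 in Irs2 (5.6% of promoters), and in Irs1 the first overlapped the E-box. The RefSeq starts of Irs1 and Irs2 lie upstream of the start of the gene in GENCODE and those of Frs2, Alk and Shc1 downstream of it. The windows of these genes are therefore shifted from those that GENCODE starts would give. For Irs2 (11008929 in RefSeq, 11008458 in GENCODE) the windows would not overlap. Irs2 was also the only gene whose bases after the RefSeq start were not found in a GENCODE transcript. The FOXO motifs TGTTTAC (3.17%) and TGTTTGC (4.31%) and the AP-1 motif TGANTCA (6.73%) had no match in any of the 9, and Gab1, Alk, Shc1 and Sos1 had no match to any motif. These are matches of letters in a window and say nothing of binding.

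Library totals ran from 5780062 to 11732401 counts. Dusp6, Etv4 and Etv5, which are transcribed in response to MAPK signaling and whose mean level was between 71.9 and 328 CPM in DMSO, were lower with alectinib in all 3 lines, with log2 fold changes from -2.34 to -6.66. The lines expressed epithelial markers, with a summed level of at least 567 CPM in every library, but Epcam, Cldn4 and Cldn7 averaged under 1 CPM in EA2 and Cldn4 and Cldn7 under 1 CPM in EA1, and all alveolar markers other than Ager were under 1 CPM in all lines. Of 7 epithelial markers, Krt18 was lower with alectinib in all 3 lines (-1.51, -1.79 and -1.13, adjusted p at most 0.0175) and Krt8 in EA2 (-2.61), while Cdh1 was higher in EA2 and EA3 (1.55 and 0.65) and Epcam in EA1 (2.45). The summed epithelial level in EA2 went from 1811 to 2695 CPM in DMSO to 567 to 1169 CPM, and the treatments overlapped in EA1 and EA3. Of 6 fibroblast markers tested, 5 were higher with alectinib in EA1, 3 in EA2 and 5 in EA3, beside 19.0%, 13.0% and 17.5% of all genes; their summed level (8 genes) went from 9.08 to 44.1 CPM across DMSO libraries of EA1 to 126 to 479 CPM with alectinib, from 58.4 to 71.5 to 122 to 239.8 CPM in EA2, and from 10.2 to 20.2 to 84.8 to 286 CPM in EA3, and the part of either marker list in the results below was not tested. Lum and Postn averaged under 1 CPM in DMSO in all 3 lines. In bulk RNA, fewer cells of a type and less RNA per cell cannot be told apart. The mitochondrial share of counts was higher with alectinib in EA1 (2.353% to 2.772%, against 1.188% to 1.973% in DMSO) and overlapped between treatments in EA2 and EA3. Compared within days, it was higher with alectinib on every day in EA3, and on days 1, 2 and 3 but not 5 in EA2.

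Each library's deviation from the mean of the other days of its line and treatment was correlated with transcript length. Long transcripts were low in the EA3 DMSO library of day 2 (Spearman's rho -0.537 across 14258 genes, which are not independent replicates) and high in that of day 3 (0.431). They were also low in the EA2 alectinib library of day 2 (-0.448). All 10 members have transcripts longer than the median of 3183 bases, from 3250 in Shc1 to 9144 in Irs1, and the part of this trend in their values was not tested. In EA3 on day 2 of DMSO, Eml4, Frs2, Irs1, Gab1, Gab2 and Sos1 were at their lowest of the 4 DMSO days, and on day 3 these 6 genes, Irs2 and Alk were at their highest. Alk, Irs2 and Ptpn11 were at their lowest on day 5, Ptpn11 was at its highest on day 1, and Shc1 was at its highest on day 2 (241.3 CPM). An offset for transcript length and a fit without the EA3 libraries of days 2 and 5 were added after seeing the data. The latter kept day 3 and left out day 5, whose DMSO library showed little trend with length (-0.0661), so that its EA3 values rest on days 1 and 3. Calls in EA3 that changed under either are given beside the result. The 2 libraries labelled EA3 day 7 correlated more with the mean of EA2 (0.969 in DMSO, 0.989 in alectinib) than with that of EA3 (0.906 and 0.897), and they entered no comparison other than an alternative fit of all 26 libraries.

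In DMSO, Shc1 and Ptpn11 were the most abundant members per length and Gab1 and Irs2 among the least abundant. Levels between genes were compared as RPKM, which divides the CPM by the length of all exons. Shc1 was at 37.2 ± 4.06 RPKM (SD, n = 4 days) in EA1, 35.0 ± 2.87 in EA2 and 37.4 ± 4.85 in EA3. Ptpn11 followed at 31.0 ± 6.33, 23.7 ± 1.97 and 26.2 ± 9.15 RPKM. Their ranges over days overlapped in EA1 and EA3 but not in EA2.

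The level of Alk per length was 9.29 ± 1.15, 15.5 ± 2.35 and 10.7 ± 1.7 RPKM for EA1, EA2 and EA3, respectively. For Alk and Eml4 the length is that of the whole gene, of which the fusion transcript holds only a part. Their places among the members are therefore uncertain. Sos1, the RAS exchange factor, was at 8.03 ± 2.1, 15.6 ± 2.06 and 10.8 ± 6.19. Eml4 was at 7.6 ± 1.21, 19.0 ± 1.39 and 7.33 ± 3.43 RPKM. In EA1, the ranges of Alk, Sos1, Gab2 (7.91 ± 3.44), Eml4, Irs1 (7.18 ± 1.4) and Frs2 (6.49 ± 0.883) overlapped from each gene to the next, so that the spread did not separate neighbors in this order, although every Alk value was above every Frs2 value. Frs2 and Gab1 (4.25 ± 1.02 RPKM) overlapped narrowly, whereas Irs2, at 1.53 ± 0.437 RPKM, was below every other member on every day. In EA2, Gab1 was the lowest at 2.7 ± 0.148 RPKM, below Frs2 (5.06 ± 0.94), Irs2 (5.09 ± 0.732) and Gab2 (6.03 ± 2.11), which overlapped each other. In EA3, Gab1 was again the lowest on average (1.81 ± 0.478 RPKM), but its range overlapped with that of Irs1 (3.5 ± 2.59). With the longest transcript as length, Shc1 and Ptpn11 kept places 1 and 2 in DMSO in all 3 lines.

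**Figure D1:**
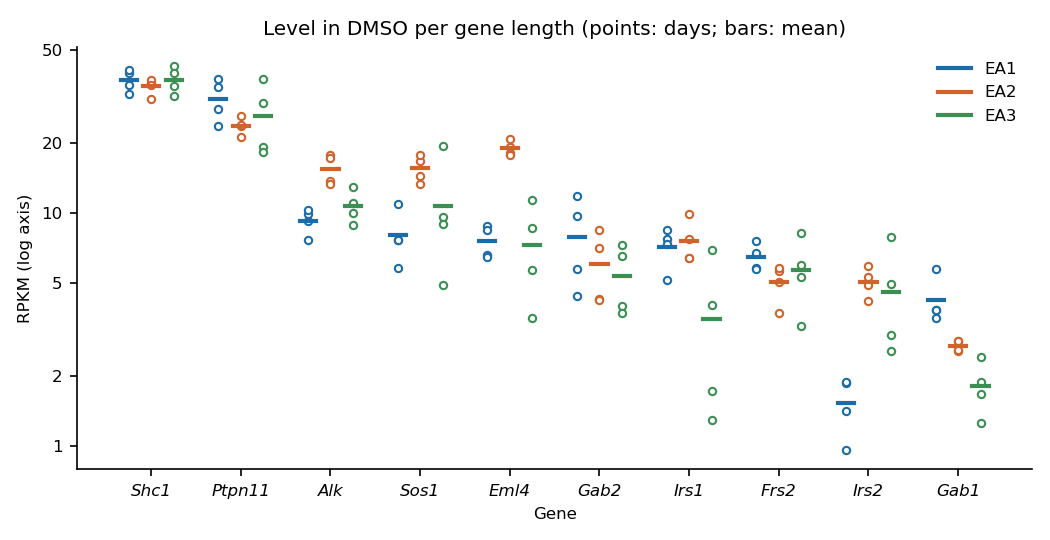
Level of each gene per length (RPKM, log axis) in the DMSO libraries, by line. Circles are days 1, 2, 3 and 5, bars are means of 4 days. The means of Shc1 and Ptpn11 stand above those of the others, although Ptpn11 on 2 days of EA3 lies just below Sos1 on day 3, EA1 is low in Irs2, and EA2 is high in Eml4.

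The lines differed in 7 of 10 members in DMSO (edgeR's quasi-likelihood test with 2 degrees of freedom, Benjamini-Hochberg adjustment), against 54.9% of all genes tested. EA2 differed from EA1 in 5 members (4 higher, 1 lower), where 39.9% of all genes differed. EA3 differed from EA1 in 4 (1 higher, 3 lower, against 31.2% of all genes) and from EA2 in 4, all lower in EA3 (against 35.9%). The 3 pairwise comparisons share libraries. Without day 5, 4 members differed between lines in place of 7, since Alk, Gab2 and Irs1 no longer passed (adjusted p = 0.0866, 0.126 and 0.0705), and the share of all genes fell to 38.4%. With the day left out of the fit as a block, 4 members also differed, Irs1, Gab2 and Sos1 being lost (adjusted p = 0.0836, 0.355 and 0.104), beside 40.6% of all genes.

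Irs2, a docking protein of the insulin and IGF1 receptors, was lower in EA1 than in EA2 and EA3. In EA1, its DMSO level lay between 6.09 and 11.9 CPM. EA2 lay between 26.5 and 37.5 CPM, and EA3 between 16.1 and 49.7 CPM. Every EA1 library was below every library of the other lines, and EA2 and EA3 overlapped. The log2 difference was 1.70 (95% CI 0.99 to 2.41, adjusted p = 0.00143) for EA2 against EA1 and 1.53 (0.80 to 2.26, adjusted p = 0.0041) for EA3 against EA1.

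Eml4 was higher in EA2 than in EA1 by 1.31 on the log2 scale (95% CI 0.80 to 1.82, adjusted p = 0.000815), and EA3 was below EA2 by a difference of -1.46 (-1.97 to -0.94, adjusted p = 0.000471). Alk was also higher in EA2 than in EA1, with a log2 difference of 0.70 (0.32 to 1.07, adjusted p = 0.00668), and Sos1 by 0.96 (0.49 to 1.43, adjusted p = 0.00375). EA3 was lower than EA2 in Alk (-0.52, adjusted p = 0.0318) and Sos1 (-0.66, adjusted p = 0.0321). With the length offset, that of Alk was -0.37 (adjusted p = 0.075). Sos1 did not pass between EA3 and EA1 (0.3, adjusted p = 0.315) except with the length offset (0.46, adjusted p = 0.0418). Without the EA3 libraries of days 2 and 5, the differences of Alk and Sos1 between EA3 and EA2 were -0.41 (adjusted p = 0.282) and -0.29 (adjusted p = 0.457), and both were also lost without day 5 (adjusted p = 0.193 and 0.164) or day 1 (adjusted p = 0.0558 and 0.0732). Without day 2 they had an adjusted p of 0.0549 and 0.161, and without day 3 Alk had 0.0525. Without the day as a block they had 0.0609 and 0.292, and with no filter on low counts Alk had 0.0515. The difference of Sos1 between EA2 and EA1 had 0.0592 without the block. Without day 5 the difference of Alk between EA2 and EA1 was 0.53 (adjusted p = 0.0531).

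Gab1, a docking protein that recruits PI3K and SHP2, was higher in EA1 than in the other lines. The log2 difference was -0.67 (95% CI -1.12 to -0.22, adjusted p = 0.0225) for EA2 against EA1 and -1.25 (-1.72 to -0.78, adjusted p = 0.000791) for EA3 against EA1. The former was lost without day 5 (-0.55, adjusted p = 0.139), without day 1 (adjusted p = 0.0587) or without day 2 (adjusted p = 0.0652), with library size alone as scaling (-0.49, adjusted p = 0.0844) and with no filter on low counts (-0.66, adjusted p = 0.0525). Gab1 in EA3 against EA2 passed the threshold in 3 alternatives, namely library size alone (-0.71, adjusted p = 0.0227), DESeq2 (-0.58, adjusted p = 0.0383) and without day 3 (-0.76, adjusted p = 0.0215). Irs1 was lower in EA3 than in EA1 (-1.21, adjusted p = 0.0166) and EA2 (-1.32, adjusted p = 0.0108), but its EA3 DMSO values ran from 11.9 CPM on day 2 to 63.6 CPM on day 3, and without EA3 days 2 and 5 the differences were -0.49 (adjusted p = 0.293) and -0.56 (adjusted p = 0.211). They were also lost without day 2 in any line (adjusted p = 0.0992 and 0.0728) or without day 5 (adjusted p = 0.0612 and 0.0761), or with no block for the day (adjusted p = 0.0893 and 0.0686). Gab2 was lower in EA3 than in EA1 by a log2 difference of -0.53 (adjusted p = 0.0221), which was lost without day 2, 3 or 5 (adjusted p from 0.0813 to 0.111). It was also lost with no filter on low counts (adjusted p = 0.0996), without the block (adjusted p = 0.286), with the length offset (-0.4, adjusted p = 0.11) and without EA3 days 2 and 5 (-0.49, adjusted p = 0.194). Shc1, Frs2 and Ptpn11 did not pass the test between lines (adjusted p = 0.688, 0.328 and 0.174).

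Within the DMSO cultures, none of the members passed the test for a change with the logarithm of the day in EA1, EA2 or EA3 (edgeR's quasi-likelihood test), where 1.64%, 0.0% and 5.24% of all genes did. At an unadjusted p under 0.05 there was 1 member in EA1, namely Gab2, and 0 in the other lines, against 15.9%, 1.98% and 21.8% of all genes in EA1, EA2 and EA3. Gab2 in EA1 had a slope of 0.59 per doubling of days (95% CI 0.08 to 1.1, adjusted p = 0.238), with 27.1, 35.4, 72.6 and 60.0 CPM on days 1, 2, 3 and 5.

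With alectinib, the docking protein transcripts Irs2, Frs2 and Gab1 were higher in EA1 and EA2, and Alk was lower in EA1 and EA3. EA1 had 3 members higher (Irs2, Frs2 and Gab1) and 2 lower (Alk and Eml4), beside 19.0% higher and 14.6% lower among all genes. Irs2, Frs2 and Gab1 were the 3 members higher in EA2, with 0 lower, beside 13.0% and 11.3% of all genes. At an unadjusted p under 0.05, 6, 4 and 5 members passed in EA1, EA2 and EA3, against 44.9%, 36.0% and 42.9% of all genes. Gab1 and Ptpn11 were higher in EA3 and Alk was lower, beside 17.5% and 15.1% of all genes. Over the 10 members, the median log2 fold change was 0.29, 0.1 and 0.35 (EA1, EA2 and EA3, respectively), beside 0.06, 0.0 and 0.07 over all genes. Only Gab1 passed the threshold in all 3 lines. The share of all genes that did so is not given here, so that this count has nothing to be read against. Without day 3, 6 members passed in EA3 in place of 3, since Irs2, Frs2 and Irs1 were then also higher, while 14.3% of all genes were higher and 12.8% lower in that fit.

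**Figure D2:**
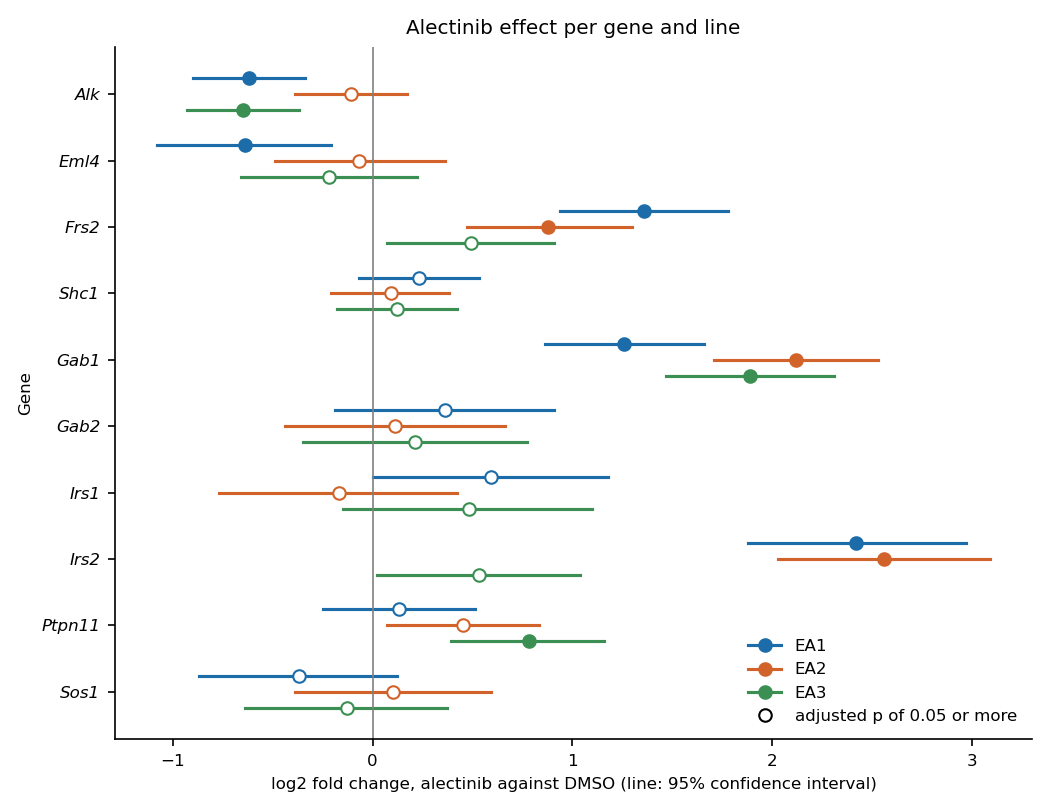
Log2 fold change of alectinib against DMSO for each gene in EA1, EA2 and EA3, with 95% confidence intervals. Filled points have an adjusted p under 0.05 and open points do not. Gab1 is filled in all 3 lines, and Irs2 lies above 2 in EA1 and EA2 but at 0.53 in EA3.

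**Figure D3:**
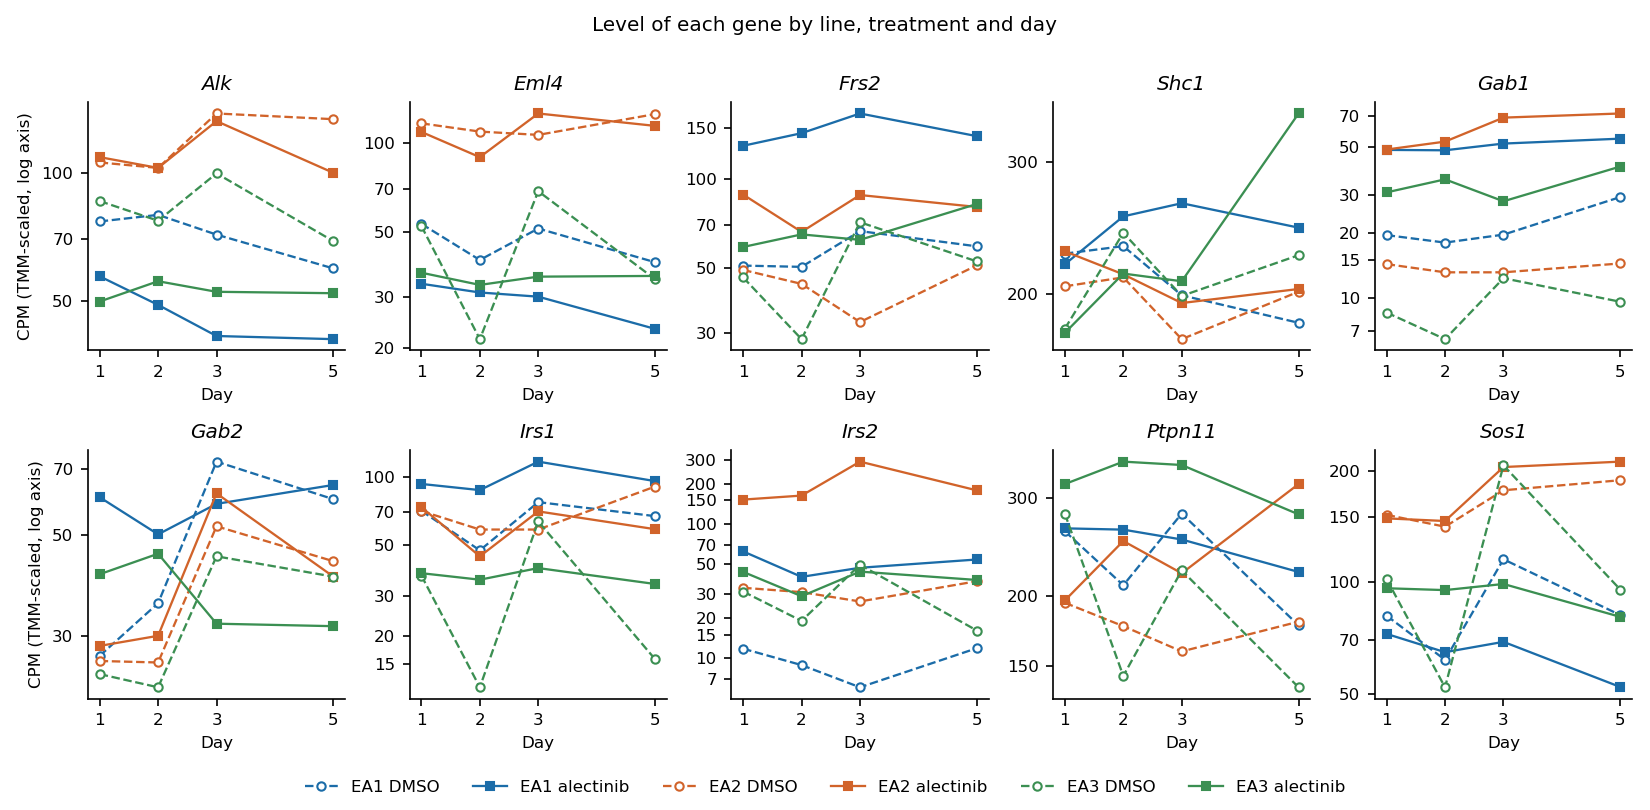
Level of each gene (TMM-scaled CPM, log axis, scale differs between panels) by day in DMSO (open circles, dashed) and alectinib (filled squares, solid) for EA1, EA2 and EA3. Alectinib lies above DMSO on every day for Irs2 and Frs2 in EA1 and EA2 and for Gab1 in all 3 lines.

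Irs2 had the largest change of the 10 members in EA1 and EA2. In EA1, its level with alectinib was 62.5, 40.4, 47.2 and 54.4 CPM on days 1, 2, 3 and 5, against 11.8, 8.91, 6.09 and 11.9 CPM in DMSO. In EA2, it was 152, 163, 291 and 178 CPM with alectinib against 33.5, 31.1, 26.5 and 37.5 CPM. In these lines every alectinib library was above every DMSO library, and the EA1 libraries with alectinib were also above the EA2 libraries in DMSO. In EA3, alectinib gave 44.0, 29.0, 44.2 and 38.3 CPM and DMSO 31.4, 19.0, 49.7 and 16.1 CPM, so that the treatments overlapped and the day 3 value was lower with alectinib.

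The log2 fold change of Irs2 was 2.42 in EA1 (95% CI 1.88 to 2.97, adjusted p = 2.26e-05), a 5.37-fold difference, and 2.56 in EA2 (2.03 to 3.09, adjusted p = 1.45e-05), a 5.9-fold difference. In EA3, it was 0.53 (0.02 to 1.04, adjusted p = 0.107), 0.75 (adjusted p = 0.0104) without day 3, and 0.69 (adjusted p = 0.0348) when the libraries labelled day 7 were included. The effect differed between lines (2 degrees of freedom, adjusted p = 0.00504, edgeR's quasi-likelihood test), being smaller in EA3 than in EA1 by a difference of -1.89 (-2.63 to -1.16, adjusted p = 0.0149) and than in EA2 by -2.03 (-2.76 to -1.30, adjusted p = 0.00741), whereas EA2 and EA1 differed by 0.14 (-0.60 to 0.87). The test over all lines passed under every alternative (adjusted p from 5.15e-11 to 0.0293). The pairwise difference between EA3 and EA1 lost the threshold without day 1 (adjusted p = 0.0615), day 2 (0.12) or day 3 (0.0526), and that between EA3 and EA2 when the libraries labelled day 7 were included (-1.84, adjusted p = 0.0725). Irs2 was 1 member of 10, and 6.84% of all genes differed between lines in this way. Without EA3 days 2 and 5, the EA3 value was 0.1 (adjusted p = 0.854), and the difference between lines stayed past the threshold (adjusted p = 0.00826).

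Irs1, the relative of Irs2, did not pass the test in any line. With alectinib it was at 87.3 to 116 CPM in EA1, above all DMSO values (47.5 to 77.3 CPM), with a log2 fold change of 0.59 (95% CI 0.00 to 1.18, adjusted p = 0.11). It passed the threshold when EA1 was fitted alone (0.55, adjusted p = 0.0289), with the length offset (0.51, adjusted p = 0.0466) and without EA3 days 2 and 5 (0.51, adjusted p = 0.0362). In EA2 the log2 fold change was -0.17 (-0.77 to 0.42) and in EA3 0.48 (-0.15 to 1.1), with overlap in both lines. The latter was 0.86 (adjusted p = 0.0427) without day 3 and -0.38 (adjusted p = 0.332) without EA3 days 2 and 5.

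Gab1 rose in every line. Its CPM on days 1, 2, 3 and 5 was 19.5, 18.0, 19.6 and 29.3 in DMSO and 48.5, 48.3, 51.9 and 54.7 with alectinib in EA1. In EA2, it was 14.3, 13.1, 13.1 and 14.4 in DMSO and 48.7, 53.0, 68.5 and 71.6 with alectinib. In EA3, it was 8.52, 6.41, 12.3 and 9.56 in DMSO and 30.8, 35.4, 28.0 and 40.6 with alectinib. The treatments did not overlap in any line, and the log2 fold change was 1.26 in EA1 (95% CI 0.86 to 1.66, adjusted p = 0.000289), 2.12 in EA2 (1.71 to 2.53, adjusted p = 1.08e-05) and 1.89 in EA3 (1.47 to 2.31, adjusted p = 2.6e-05). EA1, which had the highest level in DMSO, had the smallest fold, but the effects were not shown to differ between lines (adjusted p = 0.11; EA2 minus EA1 0.86, 95% CI 0.30 to 1.42).

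Gab2, the relative of Gab1, overlapped between treatments in all 3 lines, with log2 fold changes of 0.36 (95% CI -0.19 to 0.91), 0.11 (-0.44 to 0.66) and 0.21 (-0.35 to 0.77). Its level with alectinib was 50.2 to 64.5 CPM in EA1, 28.5 to 61.8 CPM in EA2 and 31.5 to 45.5 CPM in EA3. In EA1 and EA3, its daily log2 ratio was positive on days 1 and 2 (1.16 and 0.5 in EA1, 0.73 and 0.98 in EA3) and was -0.31 and -0.49 on day 3. On day 5 it was 0.11 in EA1 and -0.36 in EA3.

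Frs2, the membrane-bound adaptor best known from FGF receptors, rose in EA1 and EA2. In EA1, it was at 50.9, 50.4, 66.7 and 59.2 CPM in DMSO and 130.2, 144, 168 and 140.4 CPM with alectinib. In EA2, it was at 49.2, 44.1, 32.7 and 51.0 CPM in DMSO and 88.8, 66.3, 88.5 and 80.6 CPM with alectinib. Both lines showed no overlap, and the log2 fold change was 1.36 in EA1 (95% CI 0.94 to 1.78, adjusted p = 0.000223) and 0.88 in EA2 (0.47 to 1.30, adjusted p = 0.00476). EA3 had 46.4, 28.6, 71.5 and 52.6 CPM in DMSO and 58.9, 65.0, 62.3 and 82.5 CPM with alectinib, with overlap and a log2 fold change of 0.49 (0.07 to 0.91, adjusted p = 0.0693). With library size alone as scaling, which raised the median of all genes in EA3 by 0.12, Frs2 passed there (0.61, adjusted p = 0.0237), as it did without day 3 (0.70, adjusted p = 0.016), and without EA3 days 2 and 5 it was at 0.02. The effect was not shown to differ between lines (adjusted p = 0.133), but it passed that threshold with the length offset (adjusted p = 0.0179) and without EA3 days 2 and 5 (adjusted p = 0.0483).

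**Figure D4:**
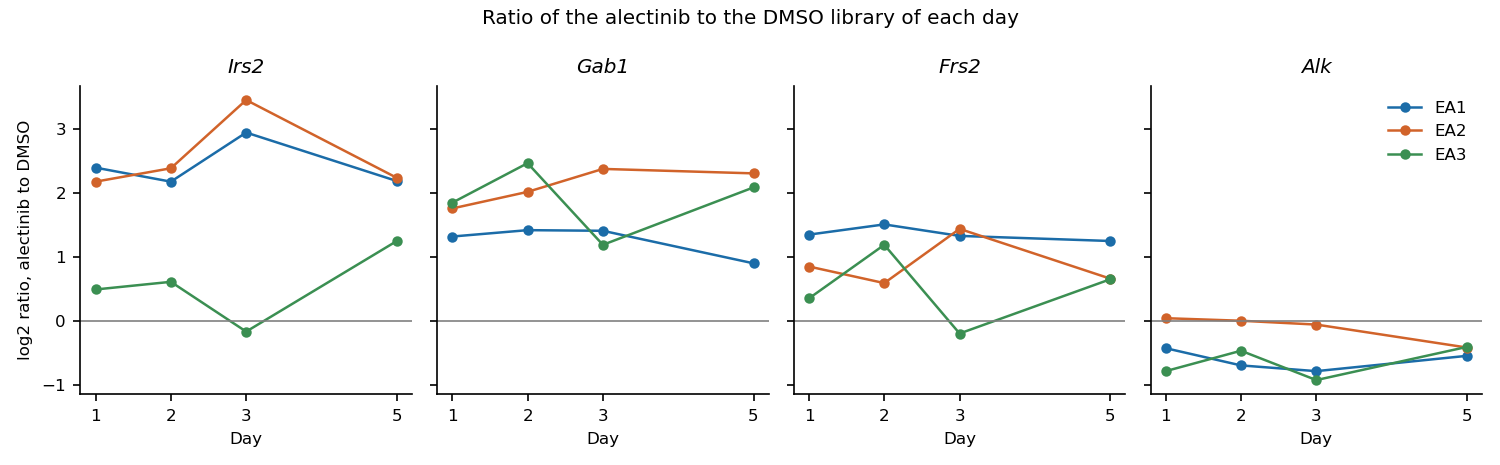
Log2 ratio of the alectinib to the DMSO library of the same day for Irs2, Gab1, Frs2 and Alk in EA1, EA2 and EA3. Irs2 lies between 2.18 and 3.46 on all days in EA1 and EA2 and between -0.17 and 1.25 in EA3, and Alk is below 0 on all days in EA1 and EA3.

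Alk itself fell in EA1 and EA3 and did not pass the test in EA2. In EA1, its level was 77.0, 79.8, 71.7 and 59.7 CPM in DMSO on days 1, 2, 3 and 5 and 57.2, 49.0, 41.4 and 40.7 CPM with alectinib. In EA3, it was 86.0, 77.3, 99.9 and 69.2 CPM in DMSO and 49.9, 55.7, 52.6 and 52.2 CPM with alectinib. Every alectinib library was below every DMSO library in both lines. In EA2, DMSO gave 106, 103, 138 and 134 CPM and alectinib 109, 103, 133 and 100.2 CPM, so that the treatments overlapped. The log2 fold change was -0.62 in EA1 (95% CI -0.90 to -0.34, adjusted p = 0.00306), -0.65 in EA3 (-0.93 to -0.37, adjusted p = 0.00231) and -0.11 in EA2 (-0.39 to 0.17, adjusted p = 0.578). The difference between lines did not pass the threshold (adjusted p = 0.12) except with the length offset (adjusted p = 0.037).

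Eml4, whose promoter drives the fusion, fell in EA1. Its level there was 53.1, 40.0, 51.2 and 39.3 CPM in DMSO and 33.2, 31.0, 30.0 and 23.3 CPM with alectinib, without overlap, and the log2 fold change was -0.64 (95% CI -1.08 to -0.21, adjusted p = 0.0259). The direction held without any 1 day, but the adjusted p was 0.0921 without day 1, 0.0536 without day 3 and 0.086 without day 5. In EA2, Eml4 was at 117, 109.5, 107 and 126 CPM in DMSO and 109, 89.6, 126 and 114.5 CPM with alectinib, with a log2 fold change of -0.07 (-0.49 to 0.36). In EA3, DMSO gave 52.2, 21.5, 68.6 and 34.4 CPM and alectinib 36.2, 32.9, 35.1 and 35.3 CPM, so that the alectinib values lay within the DMSO range. The EA3 log2 fold change was -0.22 (-0.66 to 0.22, adjusted p = 0.436), and it was -0.80 (adjusted p = 0.0253) without days 2 and 5.

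Alk and Eml4 went together across libraries, with a Pearson correlation of log2 CPM of 0.886 over 24 libraries, which share lines and scaling. Per length, Alk exceeded Eml4 in all 8 libraries of EA1 (ratio 1.07 to 1.55) and all 8 of EA3 (1.07 to 2.81), and lay below it in EA2 except on day 3 of DMSO (0.682 to 1.01). With the longest transcript in place of all exons as length, the direction in EA2 did not hold, Alk being above Eml4 in 4 of 8 libraries (0.876 to 1.29), whereas it was above in all 8 libraries of EA1 (1.38 to 1.99) and of EA3 (1.37 to 3.6). Both lengths are those of whole genes, whereas the fusion transcript holds only part of Alk and part of Eml4. The ratios therefore do not give the relative abundance of Alk and Eml4 transcripts. The highest ratio, 2.81, was that of EA3 DMSO on day 2, the library low in long transcripts. The median ratio in DMSO was 1.15, 0.78 and 1.42 for EA1, EA2 and EA3, and with alectinib 1.29, 0.798 and 1.16.

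**Figure D5:**
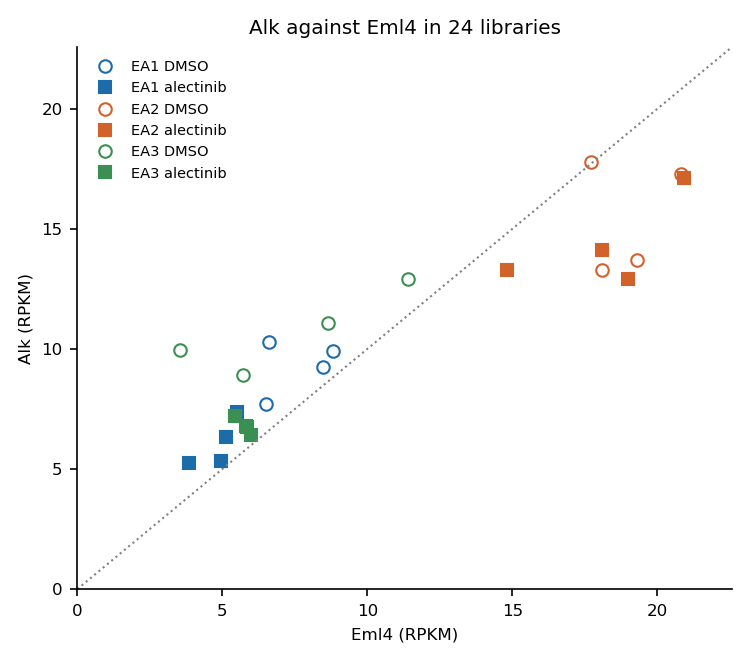
Alk against Eml4 per length of all exons (RPKM) in each of 24 libraries, open for DMSO and filled for alectinib. The dotted line marks equal RPKM, with whole genes as length. All libraries of EA1 and EA3 lie above it, and those of EA2 lie at the highest Eml4 levels, from 14.8 to 20.9 RPKM.

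Protein-coding genes beside Alk and Eml4 on chromosome 17 in the annotation were read as a comparison by position. The fusion arises by an inversion, so that neighbors in the annotation need not be neighbors on the fused chromosome. Ypel5, Lbh, Lclat1, Slc8a1, Gm11096 and Pkdcc lie between Alk and Eml4. Of the 3 on either side of Alk, Togaram2 was below 1 CPM on average in all groups and Pcare had no counts, while Clip4, Ypel5, Lbh and Lclat1 were tested. Ypel5, the nearest protein-coding gene with a higher coordinate, was higher with alectinib in EA1, EA2 and EA3 (log2 fold changes 1.26, 0.85 and 1.19, adjusted p = 0.00425, 0.0404 and 0.00524). Clip4 was lower in EA2 (-1.01, adjusted p = 0.016), and Lbh was higher in EA1 and EA3 (1.12 and 1.02) and lower in EA2 (-0.81, adjusted p = 0.0176). Beside Eml4, Cox7a2l had log2 fold changes of -0.26, 0.02 and -0.42 and Mta3 of -0.01, 0.07 and -0.12, none past the threshold, while Gm11096 and Kcng3 were not tested, at or near 0. Pkdcc was lower in EA2 (-0.63, adjusted p = 0.0342), Lclat1 beside Alk was lower in EA2 (-1.17, adjusted p = 0.0463), and Slc8a1 was higher in EA3 (3.12, adjusted p = 0.00268).

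Ptpn11, which encodes SHP2, rose in EA3. Its level was 281, 144, 222 and 137 CPM in DMSO and 318, 348, 344 and 280.2 CPM with alectinib on days 1, 2, 3 and 5, higher on each day, although the lowest alectinib value was just below the highest DMSO value. The log2 fold change was 0.78 (95% CI 0.39 to 1.16, adjusted p = 0.00512), 0.57 without day 2 (adjusted p = 0.0853), 0.44 with the length offset (adjusted p = 0.0416) and 0.35 without EA3 days 2 and 5 (adjusted p = 0.324). In EA2, Ptpn11 was at 194.5, 177, 159 and 179.9 CPM in DMSO and 196, 251, 219.7 and 318 CPM with alectinib, without overlap, with a log2 fold change of 0.45 (0.07 to 0.83, adjusted p = 0.0807) that passed without day 1 (0.60, adjusted p = 0.0363) and when EA2 was fitted alone (0.44, adjusted p = 0.0446). In EA1 the treatments overlapped (0.13, -0.25 to 0.51). The effect was not shown to differ between lines (adjusted p = 0.228).

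Shc1 and Sos1, the adaptor and the exchange factor of the RAS branch, overlapped between treatments in all 3 lines. Shc1 ran from 174 to 241 CPM in DMSO and from 177 to 349 CPM with alectinib, the highest value being EA3 on day 5, with log2 fold changes of 0.23 (95% CI -0.07 to 0.53), 0.09 (-0.21 to 0.38) and 0.12 (-0.18 to 0.42). Sos1 ran from 52.1 to 207 CPM in DMSO and from 52.2 to 212 CPM with alectinib, with log2 fold changes of -0.37 (-0.87 to 0.12), 0.10 (-0.39 to 0.59) and -0.13 (-0.64 to 0.37). Sos1 passed in EA1 without day 2 (-0.59, adjusted p = 0.0472) and in EA3 with the length offset (-0.5, adjusted p = 0.0437).

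The alectinib effect on the members was not shown to change with the logarithm of the day in EA1, EA2 or EA3 by edgeR's quasi-likelihood test, with 0 members past the threshold. Only 0.021%, 0.0% and 0.0491% of all genes passed, so that the test says little about stability over days. At an unadjusted p under 0.05 there was 1 member in EA1 and 1 in EA3, Gab2 in each case, and 0 in EA2, against 11.5%, 13.2% and 6.03% of all genes in EA1, EA3 and EA2. Gab2 had slopes of -0.53 (95% CI -1.03 to -0.03, adjusted p = 0.402) and -0.59 (-1.09 to -0.08, adjusted p = 0.3) per doubling of days. Irs2 had slopes of 0.0 (-0.61 to 0.61), 0.16 (-0.49 to 0.81) and 0.18 (-0.49 to 0.85) in EA1, EA2 and EA3, and its log2 ratio on day 1 was 2.40 in EA1 and 2.18 in EA2. Gab1 had day 1 ratios of 1.32, 1.76 and 1.85 and slopes of -0.16 (-0.64 to 0.32), 0.26 (-0.22 to 0.74) and -0.04 (-0.54 to 0.46).

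Other genes of the same signaling layer were counted by list, to be read against the shares of all genes, which were 19.0%, 13.0% and 17.5% higher and 14.6%, 11.3% and 15.1% lower for EA1, EA2 and EA3. Of 37 other adaptors and docking proteins listed, 26 were tested. Those higher numbered 4, 5 and 3 for EA1, EA2 and EA3, and those lower 4, 5 and 6, with median log2 fold changes between -0.1 and 0.09. Sh2B3 (LNK), an inhibitory adaptor of cytokine receptors, was lower in all 3 lines (-0.83, -0.96 and -0.88, adjusted p = 0.00213, 0.00103 and 0.00151), going from 41.1 to 79.1 CPM on average in DMSO to 21.5 to 43.1 CPM. Grb2, the partner of Shc1 and Sos1, had log2 fold changes of 0.26, 0.35 and 0.16 and passed in EA2 alone (adjusted p = 0.0283). Irs3, Irs4 and Gab3, the other members of the docking families, were under 1 CPM on average in all groups and were not tested.

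Among 19 enzymes recruited to receptors, read against the same shares, 4, 2 and 6 were higher for EA1, EA2 and EA3, and 1, 3 and 3 lower, with medians of -0.07, 0.02 and 0.12. Pik3R1, a regulatory subunit of PI3K that binds the IRS and GAB proteins, was higher in all 3 lines, from 100.7 ± 17.1 to 457 ± 89.6 CPM in EA1 (log2 fold change 2.18, adjusted p = 5.14e-05), from 61.4 ± 10.7 to 296 ± 43.5 CPM in EA2 (2.28, adjusted p = 4.11e-05) and from 26.7 ± 7.59 to 74.6 ± 30.6 CPM in EA3 (1.44, adjusted p = 0.00101). The groups did not overlap in any line. Pik3R2, another regulatory subunit, averaged 266.6, 304.5 and 243.2 CPM in DMSO for EA1, EA2 and EA3, above Pik3R1. It did not pass in any line (-0.05, -0.43 and -0.25). Pik3R3 was higher in EA1 and EA3 (2.74 and 1.77, adjusted p = 0.000535 and 0.00544) and was at 0.62 in EA2. Pik3Ca, a catalytic subunit, was lower in EA2 and EA3 (-0.64 and -0.6, adjusted p = 0.00193 and 0.00227). Of the other catalytic subunits, Pik3Cb was higher in EA2 and EA3 (1.1 and 0.93, adjusted p = 0.00274 and 0.00696) and Pik3Cd in EA3 (2.92, adjusted p = 0.00436). Pik3Cd was near the floor there, averaging 0.409 CPM in DMSO and 3.39 CPM with alectinib. Ptpn2, a phosphatase, was lower in all 3 lines (-0.89, -0.68 and -1.06, adjusted p at most 0.0121).

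Of 14 exchange factors and GTPase activators listed, 9 were tested, again beside those shares, with 3, 2 and 2 higher for EA1, EA2 and EA3, as many lower, and medians of -0.22, -0.2 and 0.34. Rasgrp3, an exchange factor of RAS, was higher in all 3 lines (2.61, 3.12 and 2.05, adjusted p at most 0.00929). In EA2 it was near the floor, averaging 0.494 CPM in DMSO and 4.59 CPM with alectinib. Rasa1, a RAS GTPase activator, was lower in all 3 lines (-0.92, -1.63 and -0.73, adjusted p at most 0.0161). Dok1, an adaptor that recruits RASA1, was also lower in all 3 lines (-0.79, -1.05 and -1.64, adjusted p at most 0.023). Grb2, Pik3R2, Pik3R3, Pik3Ca, Pik3Cb, Pik3Cd, Ptpn2, Rasgrp3, Rasa1 and Dok1 were named after their values were seen.

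The MAPK output list fell in full, with 6 of 6 genes lower in each line and medians of -3.0, -5.81 and -3.65. Spry4, a feedback inhibitor of receptor signaling, had log2 fold changes of -4.27, -7.06 and -5.74, Spry2 of -1.78, -2.36 and -1.94, and Spred1 of -0.63, -1.48 and -1.19.

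Ligands of ALK had few counts in these cultures. Alkal1 and Alkal2, the ligands of ALK, had at most 6 and 1 counts in any library, and Mdk, a proposed ligand, at most 9. Ptn, another proposed ligand, averaged 1.35 ± 1.23 CPM in EA1 in DMSO and 7.18 ± 5.13 CPM with alectinib (n = 4 days, adjusted p = 0.0729), and was at 0 in every DMSO library of EA2 and EA3. Ltk, the receptor most like ALK, averaged 2.42 ± 1.1 CPM in EA3 in DMSO and under 1 CPM in EA1 and EA2. Ptprz1, a receptor of pleiotrophin, was higher with alectinib in EA3 (1.89, adjusted p = 0.0145), going from 0.953 ± 0.71 to 3.77 ± 3.18 CPM.

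Of the 5 other EML genes, which encode relatives of the fusion partner, 1 was lower in EA1, while EA2 had 3 lower and EA3 had 2 lower and 1 higher, beside 14.6%, 11.3% and 15.1% of all genes lower for EA1, EA2 and EA3, and 17.5% higher for EA3. Eml1 was lower in EA2 and EA3 (log2 fold changes -1.0 and -1.72, adjusted p = 0.00216 and 5.95e-05), going from 117 ± 6.12 to 60.1 ± 17.5 CPM and from 68.3 ± 11.3 to 20.7 ± 2.92 CPM, and was at -0.25 in EA1. Eml2 was lower in EA2 (-1.18, adjusted p = 0.00718), Eml3 in EA3 (-0.64, adjusted p = 0.00809), and Eml5 in EA1 (-1.94, adjusted p = 0.00108) and EA2 (-1.2, adjusted p = 0.0238). Eml6, which averaged between 0.614 and 7.63 CPM, was higher in EA3 (1.44, adjusted p = 0.014).

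Among 9371 genes with an average log2 CPM of at least 3, those most like Alk over the 24 libraries were Timp1 (Pearson's r 0.924), Wdr43 (0.912) and Bcat1 (0.907). For Eml4, they were Usp45 (0.965), Smchd1 (0.944) and Fam206A (0.933), and for Gab1 Zc2Hc1A (0.963), Ttc28 (0.962) and Timp3 (0.955). Within the members, Sos1 had r = 0.908 with Eml4 and 0.799 with Alk, and Frs2 and Irs2 had 0.794 and 0.625 with Gab1. These values describe 24 libraries that fall into 3 lines and 2 treatments.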

How the data were processed

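RNA was sequenced from EA1, EA2 and EA3 cultures with stranded mRNA libraries and paired reads of 151 bases. The authors checked reads with FastQC, trimmed adapters with bbduk, used STAR for alignment to mm10, and deposited the raw counts that the aligner itself tallied for each gene. The annotation release and the strand column are not given in the sources used here. Of 55415 rows, 24 held dates in place of a symbol, with 0.129% to 0.201% of counts, and were left out. Symbols are spelled as in the table. A further difference in genotype between the lines is not reported here.

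Counts were tested with edgeR 4.0.16 (R 4.3.3) by the quasi-likelihood test with robust estimation, after TMM scaling and filterByExpr by line and treatment. The fit held 12 blocks of line and day and 1 alectinib effect per line, with Benjamini-Hochberg adjustment over 14264 genes and a threshold of 0.05. The day label pairs the DMSO and alectinib libraries of a line; deviations of such pairs from their group means correlated between -0.3 and 0.549. DMSO levels were fitted with line and day. CPM values are scaled by TMM factors, and RPKM used exon lengths of the annotation. The scripts were tested on simulated counts.

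All 10 members are named. Of other lists, the genes changed in one direction in all 3 lines with the smallest adjusted p (at most 8), the ALK ligands, EML genes and neighbors of Alk and Eml4 are named. The members and lists were chosen with earlier results of these data known. Alternatives were DESeq2 1.42.0, other scalings and filters, no block, lines fitted alone, all 26 libraries and each day left out, with a transcript length offset and a fit without EA3 days 2 and 5 chosen after seeing the data. Intervals cover the spread between days.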

Additional observations from a re-analysis of the deposited data

Results flagged for a closer look

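Gab1 in EA1 DMSO was at 29.3 CPM on day 5, far from the other 3 days (18.0 to 19.6 CPM), with a gap of 0.858 of the range. It was the only such value among 60 groups of 4 libraries, and a value picked from so many groups can arise by chance. Its daily log2 ratio of alectinib to DMSO was 0.9 on that day and between 1.32 and 1.42 on the others.

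The alectinib effect on Irs2 differed between lines, with an adjusted p of 0.00504 (edgeR's quasi-likelihood test). Its level was higher with alectinib on 4 of 4 days in EA1 and EA2 and on 3 of 4 in EA3.

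The 2 libraries labelled EA3 day 7 were outside the comparisons, other than an alternative fit of all 26 libraries, and have no replicate. In them, Gab1 had a log2 ratio of alectinib to DMSO of 1.86 (18.3 and 66.4 CPM), Irs2 of 1.48 (39.5 and 109.8 CPM) and Irs1 of -1.48 (114 and 40.8 CPM). Alk and Eml4 had -0.86 each (168 and 92.7 CPM, and 164.5 and 90.7 CPM), Sos1 -0.95, Gab2 -0.62, Shc1 0.85, Ptpn11 0.38 and Frs2 0.16.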

How the results depend on the processing

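Of 420 values of the members' log2 fold changes under alternatives, 394 kept direction and side of the threshold, 8 reversed, 13 passed the threshold newly and 5 lost it. Irs2, Frs2 and Gab1 in EA1 and EA2, Gab1 in EA3 and Alk in EA1 and EA3 kept their calls under all 14 alternatives. Of 360 DMSO differences, 302 kept both, 18 reversed, 35 lost and 5 gained the threshold. Members called in EA3 ranged from 2 to 6 as each day was left out, and those differing between lines in DMSO from 4 to 7, while the shares of all genes ranged from 19.6% to 27.1% (32.6% with all days) and from 38.4% to 52.2% (54.9%). Without the replicate block, 4 members in place of 7 differed in DMSO, since Irs1, Gab2 and Sos1 were lost; leaving it out changed no call of the members' alectinib effects. Members whose alectinib effect differed between lines numbered 3 with the length offset and 2 without EA3 days 2 and 5, both chosen after seeing the data, in place of 1, beside 8.78% and 4.25% of all genes in place of 6.84%. The cause was not tested.

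None of the reversed values was past the threshold. As each day was left out, the alectinib effect in EA3 ranged from -0.54 to 0.01 for Eml4, from -0.51 to 0.15 for Sos1, from -0.04 to 0.18 for Shc1 and from -0.09 to 0.43 for Gab2, and that of Ptpn11 in EA1 from -0.02 to 0.19. In DMSO, EA3 minus EA1 then ranged from -0.35 to 0.05 for Eml4 and from -0.11 to 0.1 for Shc1, EA2 minus EA1 from -0.04 to 0.24 for Irs1, and EA3 minus EA2 from -0.18 to 0.31 for Frs2, from -0.62 to 0.13 for Irs2 and from -0.06 to 0.28 for Ptpn11. With the length offset, Gab2 was -0.07 for alectinib in EA3 and 0.01 for EA3 minus EA2. Without EA3 days 2 and 5, the effect in EA3 was -0.03 for Shc1 and -0.38 for Irs1, EA3 minus EA1 was 0.29 for Eml4 and 0.04 for Frs2, and EA3 minus EA2 was -0.04 for Shc1 and 0.46 for Irs2. With library size alone, Shc1 was 0.05 for EA2 minus EA1, 0.03 for EA3 minus EA1 and -0.02 for EA3 minus EA2, and Ptpn11 -0.04 for the last. With at least 10 counts in every library, Shc1 was 0.03 for EA3 minus EA1.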
